A study of Mus musculus with 8 samples.

Results

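The Peg13-Kcnk9 locus is an imprinted domain of mouse chromosome 15. It was taken as 5 listed genes, Kcnk9, Peg13, Trappc9, Chrac1 and Ago2, out of 55413 genes annotated on the main chromosomes (GENCODE M21, GRCm38). The genes were scored at their start sites (1 kb either side), over their bodies and over the whole locus from 200 kb beyond the Kcnk9 3′ end to 200 kb beyond the Ago2 5′ end, chromosome 15 from 72301089 to 73384935 (1083.85 kb). ChIP-seq had been used to map the 3 methylation states of histone H3 lysine 9, called H3K9me1, H3K9me2 and H3K9me3 for 1, 2 and 3 methyl groups, in cultured mouse embryonic fibroblasts. There were 8 samples, with 2 replicates of the input and 2 of each mark. The cells labelled wild type were, per the study's methods, the clonal line E1c, which carries a conditional Eset1 (Setdb1) allele and an inducible Cre and in which Eset1 was not deleted. Each mark had 1 list of enriched regions for both replicates, with positions only. No mean, error or test over replicates could therefore be given, the lists do not tell how many reads lie behind a region, and every value below describes 1 map per mark.

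In an imprinted domain a gene is expressed mainly from the allele of one parent. Control usually lies with a germline differentially methylated region (DMR), a stretch of DNA that is methylated in only one of the parental gametes and keeps that difference after fertilisation. On the DNA-methylated allele such regions are bound by the zinc finger protein ZFP57, which recruits the corepressor KAP1 and the enzyme SETDB1, which places H3K9me3. In this domain the germline DMR lies at the start of Peg13, a noncoding RNA made from the paternal allele inside an intron of Trappc9, and the maternal allele is the DNA-methylated one. Kcnk9, which encodes the potassium channel TASK-3, is expressed from the maternal allele in brain, and Trappc9, Chrac1 and Ago2 are expressed from both alleles with a maternal bias in brain. The region lists hold no allele, so the parental chromosomes cannot be told apart here, and expression was not analysed here.

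H3K9me1 covered 80.8% of the bases of the locus, H3K9me2 66.3% and H3K9me3 60.0%. All 3 marks lay together on 43.5% of its bases, H3K9me1 alone on 26.7%, H3K9me2 with H3K9me3 on 13.4%, and no mark on 4.01%. The 3 lists held 49, 28 and 35 regions in the locus, and the median width was 6.75 kb for H3K9me3 and 7.5 kb for both other lists. Chromosome 15 as a whole was covered to 46.8%, 46.1% and 44.1%, and the 21 main chromosomes to 12.4%, 9.48% and 11.4%. The locus was thus more covered than its chromosome by each mark, but it was not at the extreme. Of 93 windows of the same length tiled along chromosome 15, 18 were covered at least as much by H3K9me1, 18 by H3K9me2 and 25 by H3K9me3, and the medians of these windows were 46.5%, 48.0% and 42.3%. The windows take in the locus itself. The one from 72366209 to 73450055 holds most of the locus and counts among the 18 for H3K9me1 (83.1%). The window before it holds an edge of the locus and counts for H3K9me2 (76.1%) and H3K9me3 (65.6%).

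**Figure D1:**
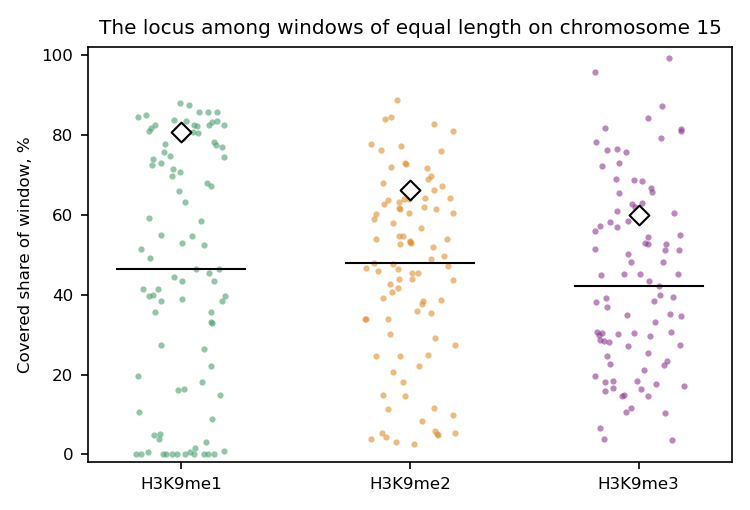
Covered share in percent (y axis) of 93 windows of 1083.85 kb tiled along chromosome 15 (points), by mark (x axis), with their median (line) and the locus (diamond). The locus lies at 80.8%, 66.3% and 60.0%, above each median and inside each range.

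The marks were laid out unevenly along the locus. Beyond the Kcnk9 3′ end, the 200 kb flank was covered to 98.1% by H3K9me2 and to 98.1% by H3K9me3 but to only 40.4% by H3K9me1. From Kcnk9 to the Trappc9 5′ end (560.116 kb) the shares were 92.6% for H3K9me1, 88.1% for H3K9me2 and 75.2% for H3K9me3. From the Chrac1 start to the Ago2 5′ end (94.544 kb), H3K9me1 covered 88.1%, and no base was covered by H3K9me2 or H3K9me3. In the 200 kb flank beyond the Ago2 5′ end the shares were 86.1%, 6% and 7.88%, with 4 H3K9me2 and 5 H3K9me3 regions starting there. The last H3K9me2 region before Chrac1 ended at 73083750 and the last H3K9me3 region at 73088250, so that both stopped between Trappc9 and Chrac1.

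**Figure D2:**
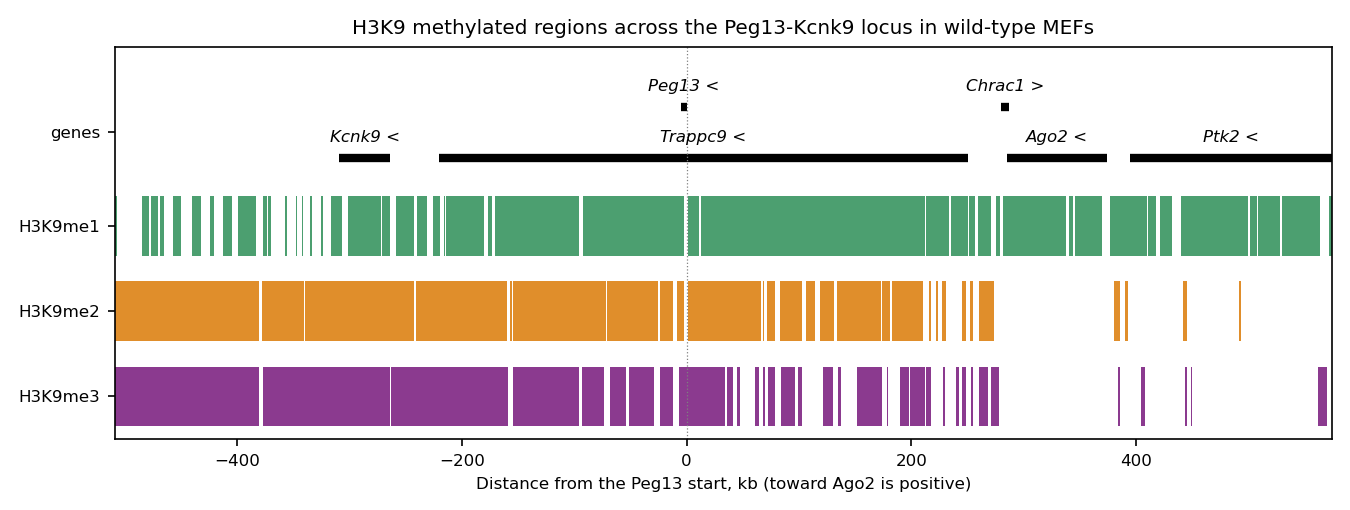
Regions of each mark (coloured bars) and the gene bodies (black bars, with < and > for the direction of transcription) by distance from the Peg13 start in kb (x axis). H3K9me2 and H3K9me3 stop between Trappc9 and Chrac1 and return only as scattered regions beyond Ago2, whereas H3K9me1 continues over Ago2 and into Ptk2.

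Peg13 (ENSMUSG00000106847.1), the noncoding RNA gene at the DMR, lies on the minus strand from 72805600 to 72810324 (4.725 kb). It sits within intron 16 of the 22-exon Trappc9 transcripts, an intron of 146.198 kb. The window of 1 kb either side of its start was covered by H3K9me3 over all of its 2001 bp, and by H3K9me1 and H3K9me2 over none. The H3K9me3 region that held the start ran from 72803251 to 72844500 and measured 41.25 kb. H3K9me1 and H3K9me2 were interrupted at this start by the same gap, from 72808501 to 72811500 (3 kb), which reached 1.176 kb upstream of Peg13 and 1.824 kb into it. Over the Peg13 body, H3K9me3 covered 100% and the other marks 61.4% each, so that 61.4% of the body carried all 3 marks and 38.6% carried H3K9me3 alone. The start was thus the only one of the 5 gene 5′ ends that lay inside an H3K9me3 region and inside gaps of the other marks.

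How often gene starts showed this arrangement was counted with gaps of at most 10 kb, a limit chosen after the Peg13 values were seen. The arrangement was called at 57 of 55413 genes (0.103%) and at 8 of 1851 genes on chromosome 15 (0.432%), Peg13 among them. H3K9me3 as the only mark within 1 kb of any annotated start, which was the state of Peg13, was called at 3.65% of all genes and 2.00% of genes on chromosome 15. The grid of the lists has steps of 750 bp, so the 3 kb gap spans only a few steps.

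Kcnk9 (ENSMUSG00000036760.7), the channel gene, lies on the minus strand from 72501089 to 72546340 (45.252 kb), and its start is 263.984 kb from that of Peg13. Its body was covered to 100% by H3K9me2, 99.2% by H3K9me3 and 87.6% by H3K9me1, and 87.6% of it carried all 3 marks. In its exons the shares were 60.7% for H3K9me1, 100% for H3K9me2 and 97.2% for H3K9me3. H3K9me2 ran without a break across the Kcnk9 start in a region of 97.5 kb. H3K9me1 and H3K9me3 stopped 340 bp inside the gene, with gaps of 5.25 kb and 1.5 kb around the start, so that 661 of the 2001 bp of the start window were covered by each.

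The annotated start decided part of the Kcnk9 result. RefSeq places the Kcnk9 5′ end at 72548614, which is 2274 bp upstream of the GENCODE start. The window around that position was fully covered by H3K9me2 and H3K9me3 and not at all by H3K9me1. For the other members the 5′ ends of the 2 annotations differed by 0 to 34 bp. H3K9me2 and H3K9me3 thus met the Kcnk9 start window with either annotation, and H3K9me1 only with that of GENCODE.

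Trappc9 (ENSMUSG00000047921.16), which encodes a subunit of the TRAPPII vesicle trafficking complex, lies on the minus strand from 72589620 to 73061204 (471.585 kb) and surrounds Peg13. Of its bases, H3K9me1 covered 95.4%, H3K9me2 86.2% and H3K9me3 70.9%. The sides of Peg13 differed in the map, but H3K9me3 did not end at Peg13. The region over its start ran on to 72844500 on the 5′ side. On the 3′ side (215.98 kb) the shares were 93.7%, 95.1% and 88.2%, and all 3 marks lay together on 82.6%. On the 5′ side (250.88 kb) they were 97.5%, 78.9% and 55.5%, and all 3 marks lay together on 50.8%. Bases with H3K9me1 and H3K9me2 but not H3K9me3 made up 6.25% of the 3′ side and 27.5% of the 5′ side.

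In steps of 50 kb from the Trappc9 3′ end, H3K9me3 lay between 79.2% and 100% up to and including the step that holds Peg13 (200 to 250 kb, 89.5%). It was between 49.2% and 52.8% in the next 4 steps and 34.2% in the last step of 21.585 kb. H3K9me2 was at least 86.5% up to 300 kb and 23.8% in the last step. H3K9me1 ranged from 80.8% to 100% over all steps, with its lowest value in the step at the 3′ end. H3K9me1 therefore kept a high share along the whole gene, while the other marks had their lowest shares in the step at the 5′ end. In the exons of Trappc9 the shares were 96.9% for H3K9me1, 65.5% for H3K9me2 and 35.6% for H3K9me3.

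**Figure D3:**
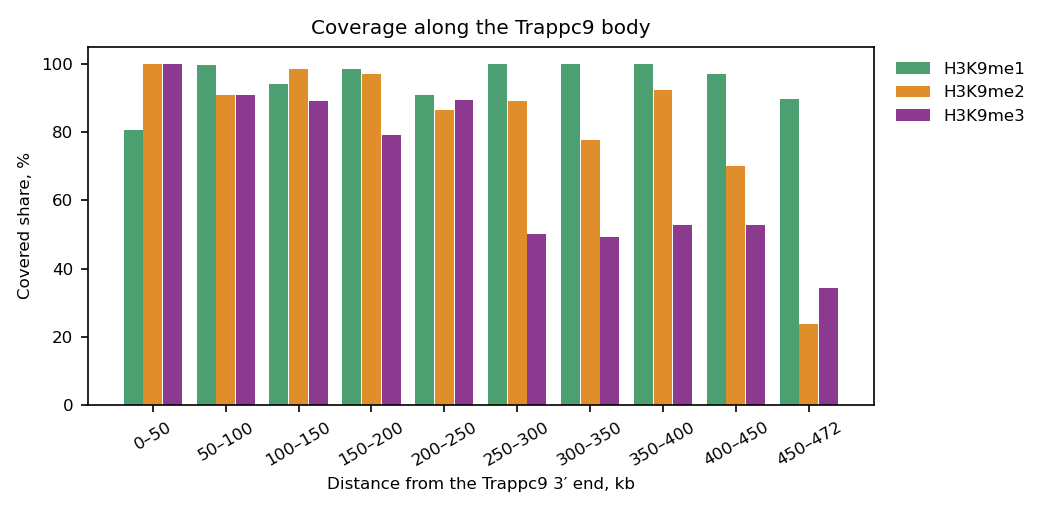
Covered share in percent (y axis) of successive 50 kb steps of the Trappc9 body from its 3′ end (x axis), by mark. H3K9me3 drops from 89.5% in the step that holds Peg13 to 50.3% in the next, and H3K9me2 is at 23.8% in the last, shorter step.

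The Trappc9 5′ end lay in a gap of each mark. The gap was 1.5 kb wide for H3K9me1, 3.75 kb for H3K9me2 and 4.5 kb for H3K9me3. H3K9me1 met the edges of the start window over 501 bp, and the other marks did not meet it. Of the 4 annotated start sites, the one at 73055810 lay inside an H3K9me1 region of 15 kb and inside regions of 3.75 kb of both other marks, and H3K9me2 and H3K9me3 at Trappc9 starts rested on this site alone.

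Chrac1 and Ago2 carried H3K9me1 only. Chrac1 (ENSMUSG00000068391.8), a histone-fold subunit of the CHRAC chromatin remodelling complex, lies on the plus strand from 73090392 to 73097554 (7.163 kb). Ago2 (ENSMUSG00000036698.11), the Argonaute protein that cleaves targets in RNA interference, lies on the minus strand from 73095844 to 73184935 (89.092 kb), and the 3′ ends of these genes overlap by 1.711 kb. H3K9me1 covered 77.5% of the Chrac1 body and 89.1% of the Ago2 body, and H3K9me2 and H3K9me3 covered 0% of either. In the exons the H3K9me1 share was 91.8% for Chrac1 and 98.8% for Ago2. Both genes lay within a single stretch without H3K9me2, from 73083751 to 73191000 (107.25 kb), and a single stretch without H3K9me3, from 73088251 to 73194750 (106.5 kb).

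At the start of Chrac1 H3K9me1 left a gap of 3 kb, and at the 5′ end of Ago2 a gap of 7.5 kb. No mark met the window of 1 kb either side of these 5′ ends. The nearest H3K9me1 edge was 1.392 kb from the Chrac1 start and 2.316 kb from the Ago2 5′ end, and the nearest H3K9me3 edge was 2.142 kb and 9.816 kb away. The 2 internal start sites annotated for Ago2 lay inside H3K9me1 regions of 56.25 kb and 23.25 kb, which alone made Ago2 a gene with an H3K9me1-marked start.

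The remaining protein-coding gene that met the locus was Ptk2, which encodes focal adhesion kinase and whose 5′ end lies 38.345 kb past the end of the locus. Its body carried 84.3% H3K9me1, 2.06% H3K9me2 and 6.53% H3K9me3. Of its 14 start sites, 6 were met by H3K9me1, 0 by H3K9me2 and 1 by H3K9me3. Like Ago2, Ptk2 was thus covered mainly by H3K9me1.

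Start sites of the 5 genes were then set beside those of all genes. With any annotated start counted, H3K9me1 marked 3 of 5 members (Kcnk9, Trappc9 and Ago2), against 21.4% of all genes and 70.3% of genes on chromosome 15. H3K9me2 marked 2 of 5 (Kcnk9 and Trappc9), against 11.5% and 50.7%. H3K9me3 marked 3 of 5 (Kcnk9, Peg13 and Trappc9), against 12.0% and 42.6%. Kcnk9 and Trappc9 carried all 3 marks, a state of 5.30% of all genes and 29.7% of genes on chromosome 15. Chrac1 carried none, as did 71.2% and 17.3%. With the GENCODE 5′ end as the only start, H3K9me1 marked 2 members, H3K9me2 marked 1 and H3K9me3 marked 2, against 60.1%, 46.7% and 39.2% of genes on chromosome 15. With any start counted, the members' share was below that of their chromosome for H3K9me1 and H3K9me2 and above it for H3K9me3, and 5 genes are too few to read any of these as a difference.

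All 5 gene 5′ ends lay in a gap between H3K9me1 regions, and the gaps were 1.5 kb (Trappc9), 3 kb (Peg13), 3 kb (Chrac1), 5.25 kb (Kcnk9) and 7.5 kb (Ago2) wide. An H3K9me1 gap of at most 10 kb at the 5′ end was called at 9.25% of all genes and 31.8% of genes on chromosome 15. Gaps of at most 5 kb left 3 of 5 members, against 19.7% of genes on chromosome 15. The limit was chosen after the members' values were seen, so the count is a description of these genes. Among the 5 GENCODE 5′ ends, that of Kcnk9 alone lay inside an H3K9me2 region and that of Peg13 alone inside an H3K9me3 region, whereas the RefSeq 5′ end of Kcnk9 lay inside regions of both marks.

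**Figure D4:**
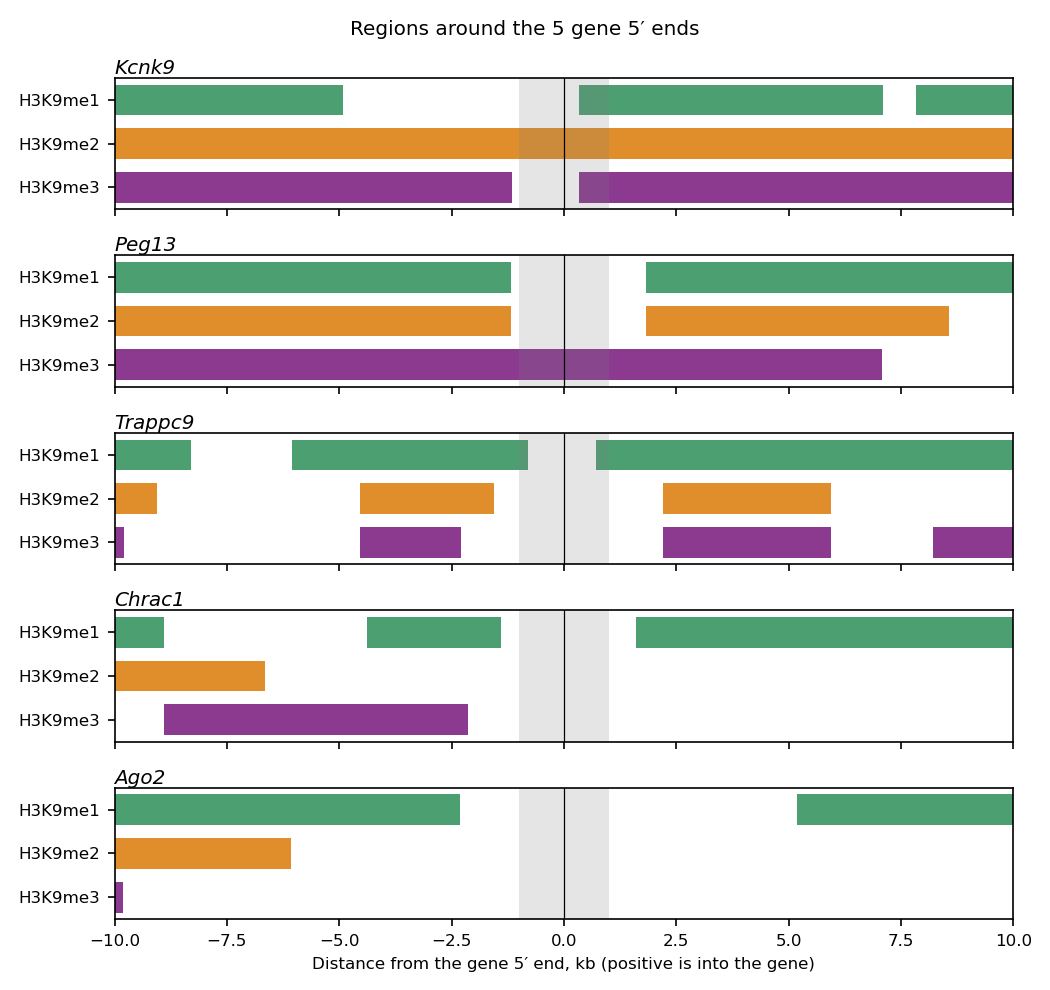
Regions of each mark (bars) within 10 kb of the GENCODE 5′ end of each gene, by distance in kb (x axis, positive into the gene), with the window of 1 kb either side shaded. H3K9me1 is interrupted at all 5 5′ ends, and an unbroken bar crosses the 5′ end only for H3K9me2 at Kcnk9 and for H3K9me3 at Peg13.

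Body coverage separated the members into a group with all 3 marks (Kcnk9, Peg13 and Trappc9) and a group with H3K9me1 only (Chrac1 and Ago2). The median over the 5 bodies was 87.6% for H3K9me1, 61.4% for H3K9me2 and 70.9% for H3K9me3. Over the 1851 genes of chromosome 15 the medians were 81.1%, 21.9% and 2.92%, and over all 55413 genes they were 0% for each mark. On chromosome 15 the lower and upper quartiles were 0% and 100% for both H3K9me2 and H3K9me3, so many genes there were bare and many fully covered. The member medians for these marks are the values of Peg13 and of Trappc9, which surrounds it. They are not read as a difference from the chromosome. Among the 225 protein-coding genes of 40 kb or more on chromosome 15, the medians were 81.5%, 21.2% and 9.93%. In that set, 1.78% of genes were covered by H3K9me2 at least as far as Kcnk9 and 3.11% by H3K9me3, while for Trappc9 these shares were 16.4% and 24.9%. The H3K9me1 share of Ago2 was reached by 28.9% of the set and that of Kcnk9 by 33.3%. Kcnk9 thus stood near the top of the long genes of its chromosome for H3K9me2 and H3K9me3 and well inside their range for H3K9me1. Its body of 45.252 kb is close to the 40 kb limit of that set, and longer bodies are less easily covered in full. Over all 1851 genes of chromosome 15, 28.2% were covered by H3K9me2 at least as far as Kcnk9 and 25.6% by H3K9me3.

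**Figure D5:**
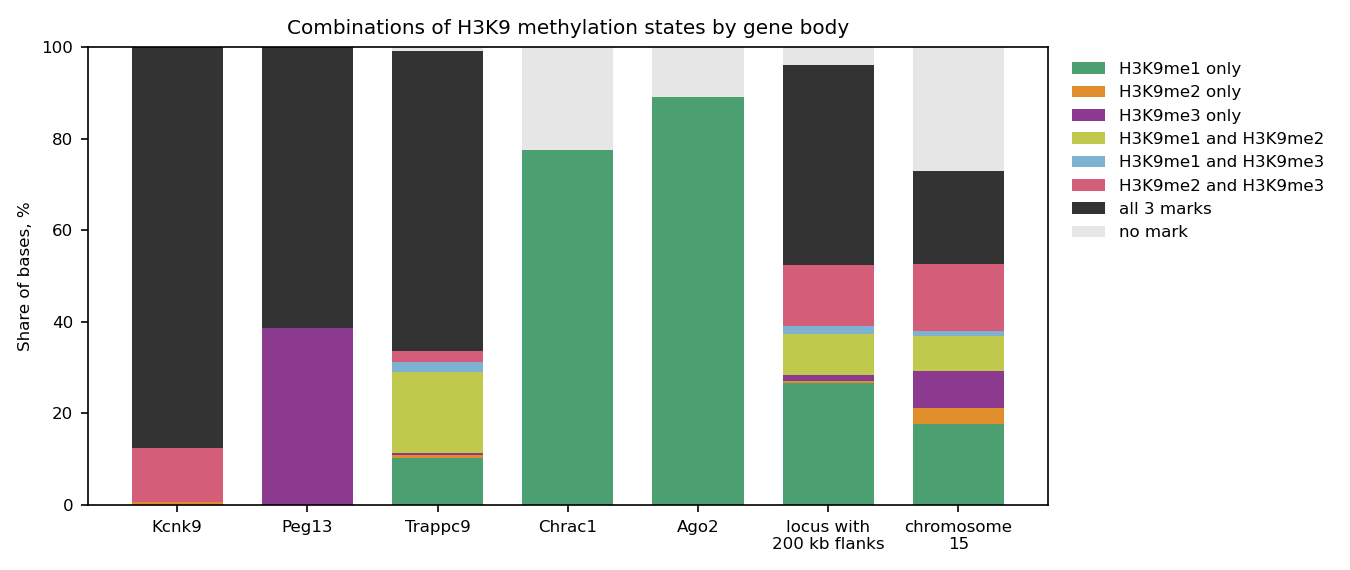
Share of bases in percent (y axis) with each combination of marks for the 5 gene bodies, the locus and chromosome 15 (x axis). All 3 marks take 87.6% of Kcnk9, 61.4% of Peg13 and 65.5% of Trappc9, while Chrac1 and Ago2 hold H3K9me1 only or no mark.

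Base composition at the starts was read from the GRCm38 sequence in the same window of 2001 bp. The Peg13 window held 88 CpG dinucleotides, with an observed to expected ratio of 0.615 and 53.5% GC. The median gene start had 25 CpG dinucleotides and a ratio of 0.240, and 15.7% of all gene starts had at least as many CpG dinucleotides as Peg13. The Kcnk9, Chrac1 and Ago2 windows held 138, 115 and 188 CpG dinucleotides and the Trappc9 window 61. All 5 members were thus above the median gene in CpG content, and Peg13 was not the richest of them.

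ZFP57 binds the hexamer TGCCGC when its CpG is methylated. Counted on both strands, this hexamer occurred 6 times in the Peg13 window, 4 times in the Kcnk9 window, 1 time each at Trappc9 and Ago2, and 0 times at Chrac1. At least 1 match was present at 28.6% of all gene starts, at least 4 matches at 1.43% and at least 6 matches at 0.240%. The limits of 4 and 6 are the Kcnk9 and Peg13 counts themselves. The hexamer holds a CpG, and the shares are not matched for CpG content, which was above the median gene start in both windows. In the Peg13 window, 5 matches lay 272 to 617 bp into the gene and 1 lay 853 bp upstream, and none overlapped another. The whole window lay inside the 3 kb gap of H3K9me1 and H3K9me2, so the place of the matches relative to that gap carries no information. Around the RefSeq start of Kcnk9 there was 1 match. A match is a run of letters and not a measured binding site, and DNA methylation was not analysed here.

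Transcripts at germline DMRs elsewhere in the genome served as a comparison, with the reservation that a DMR need not lie at the annotated starts of the gene it is named for. Of 20 listed genes, H3K9me3 marked a start of 9, H3K9me1 of 4 and H3K9me2 of 2, beside the 12.0%, 21.4% and 11.5% of all genes given above. Those shares mix 9 chromosomes covered to at least 5% in every list with 12 others where few gene starts are marked. On the 9, H3K9me3 marked 5 of 7 listed genes, H3K9me1 4 and H3K9me2 2, beside 25.3%, 45.6% and 26.4% of genes there. On the 12, the counts were 4, 0 and 0 of 13, beside 2.96%, 5.04% and 1.34%. H3K9me3 was the only mark at 6 of the 20, which were Rasgrf1, Grb10, Nnat, Nespas, Gnas and Mest, beside 3.65% of all genes. Of the 6, 4 lie on the 12 other chromosomes, where the other marks are scarce at any gene start. Nespas and Gnas lie in the same H3K9me1 and H3K9me2 gaps and are not separate loci. Of the 7 on the 9 chromosomes covered to at least 5% in every list, Plagl1 and Airn carried all 3 marks, Fkbp6 carried H3K9me1 and H3K9me3, Rasgrf1 and Grb10 carried H3K9me3 alone, Slc38a4 carried H3K9me1 alone and Zrsr1 had no mark. For Airn, Slc38a4, Gnas and Mest these calls rested on start sites other than the gene 5′ end. The arrangement of Peg13, with H3K9me3 across the 5′ end and narrow gaps in the other marks, was found at 0 of the 20. It was called at 0.103% of all genes and at 0.237% of those on the broadly covered chromosomes, so a count of 0 among 20 genes does not set the list apart, and 13 of the 20 lie on the sparsely covered chromosomes.

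Relatives and partners of the members were counted in the same way. Of 13 other genes of the tandem pore domain potassium channels, to which Kcnk9 belongs, 6 had a start with H3K9me1, 4 had one with H3K9me2 and 4 had one with H3K9me3. The shares of all genes were 21.4%, 11.5% and 12.0%, which mix broadly and sparsely covered chromosomes. On the 9 broadly covered chromosomes the counts were 5, 3 and 3 of 8 genes, beside 45.6%, 26.4% and 25.3% of all genes there. These 8 genes are too few to read a difference. Of 19 partners (other Argonaute genes, CHRAC subunits and TRAPP subunits), 17 had no mark at a start, beside 71.2% of all genes, and 12 of the 17 lie on the sparsely covered chromosomes, so nothing particular to the partners is read from this count. Median body coverage of the 7 partners on the broadly covered chromosomes was 20.6% for H3K9me1 and 0% for H3K9me2 and H3K9me3, while the 8 channel genes there had medians of 75.0%, 13.1% and 0%. Over all genes of these chromosomes the medians were 14.9%, 0% and 0%. With 7 and 8 genes, no difference between the lists or from this background is read.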

How the data were processed

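Per the methods of the study, the authors aligned the reads with bwa, for which the submitters' processing notes give 0.7.1, on the GRCm38 assembly and called enriched regions with histoneHMM. The threshold and the use of replicates and input were not given in the sources used here. The deposited lists, 1 per mark, hold chromosome, start and end, with no score. Starts were read as 1-based (0 positions lay off a 750 bp grid). No input list was analysed here.

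Genes and start sites came from GENCODE M21, RefSeq 5′ ends were an alternative, and the sequence was GRCm38.p6. Chromosome shares left out N bases. A start was marked if a region met its window by at least 1 bp. Named genes were the members and the protein-coding genes of the locus, and listed imprinted genes where few shared a state or on the broadly covered chromosomes. The members, lists and limits were chosen with earlier results of these data known. No test was run. Interval functions were tested on simulated data. Python 3.11.15, NumPy 2.4.6, pandas 2.3.3, SciPy 1.17.1 and Matplotlib 3.10.9 were used.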

Additional observations from a re-analysis of the deposited data

How the results depend on the processing

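No paired analysis was possible because each list gives positions for both replicates as 1 map. For the same reason no replicate could be left out and no replicate block fitted. A share was taken as moved when it left the 95% Wilson interval of the reported share over 750 bp bins, which covers counting error only, and a count when it changed by over 1.5 times.

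In the order H3K9me1, H3K9me2 and H3K9me3, the covered share of the locus moved to 87.2%, 71.9% and 65.4% with regions up to 5 kb apart joined, and to 91.0%, 74.6% and 64.0% without flanks. With 100 kb flanks it moved for H3K9me1 (84.7%) and H3K9me2 (69.8%), and with regions of at least 5 kb for H3K9me1 (77.6%) and H3K9me3 (56.4%). From Kcnk9 to the Trappc9 5′ end it was 92.6%, 88.1% and 75.2%, and from Chrac1 to Ago2 88.1%, 0% and 0%. The order of the marks was the same under each of these except for the last.

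H3K9me1 marked 5 members with joined regions and with 2.5 kb either side, and 1 with RefSeq 5′ ends. H3K9me2 marked 1 with regions of at least 5 kb, with the GENCODE 5′ end only and with RefSeq 5′ ends. H3K9me1 gaps of at most 10 kb held 2 of the 5 gene 5′ ends with joined regions, and gaps of at most 5 kb held 3. Joining also closed the 3 kb gaps at Peg13, since it fills all gaps up to 5 kb, whereas they stayed with regions of at least 2 kb and 5 kb. Of the alternatives for single gene bodies, 76 values stayed and 14 moved. RefSeq starts, other gap limits, width and joining rules for the gaps, and the stretches within the locus were chosen after seeing the data.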
